A study of Mus musculus with 4 samples.

Results

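The solute carrier (SLC) genes encode membrane proteins that move amino acids, sugars, metals, ions, nucleotides and vitamins across the cell surface and the membranes of organelles. They were chosen by symbol: 43 genes of the 3117 in the deposited data had a symbol of the letters SLC followed by a number and stood in both the table for transcription start sites (TSS) and the table for transcription end sites (TES), after 1 melanosomal exchanger gene was set aside by the rule. The rule itself uses no measured value, though it was set with earlier results of these data known. Of the 43, 42 encode transporters, and the remaining gene, Slc7a6os, is named for its place opposite the carrier gene Slc7a6. The transporters comprised 9 mitochondrial carriers (family SLC25), 8 metal ion carriers, 7 amino acid carriers, 5 members of the nucleotide-sugar family SLC35, 4 carriers of ions, protons or phosphate, 4 of other organic solutes, 3 of the sugar families SLC2 and SLC5, and 2 monocarboxylate carriers.

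The study asked how the RNA bound by elongating polymerase differs when Carm1 is lost. The cells were B16F10, an established mouse melanoma line. The Carm1 KO cells lacked the arginine methyltransferase Carm1, an enzyme that methylates transcription coactivators and RNA-binding proteins, and the control cells were the parental line, labelled wild type for Carm1. How the knockout was made, and whether it is a single clone, is not given in the sources used here. RNA held by RNA polymerase II (Pol II) after nuclease digestion of chromatin was sequenced (mNET-seq), after capture with an antibody against Pol II phosphorylated at serine 2 of its carboxy-terminal domain (Ser2P) or against the domain itself (8WG16). There were 4 libraries, 1 for each genotype and antibody, each from 3 sets of cells pooled after the nuclease step. For each gene and each end the authors deposited a Ser2P ratio in Carm1 KO and in control cells. By which signal Ser2P was divided is unknown here, and a change of either signal would move the ratio. With 1 pooled library per group there was no replicate spread, no test of the genotypes was possible, and every fold below describes these libraries. Read depth was unknown. Carm1 was not analysed here, so the knockout was not checked from its own value. Of 7 melanocyte lineage markers 5 were listed in at least 1 table, among them Tyr, Pmel and Mlana.

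Serine 2 phosphorylation is placed on Pol II as it elongates, and is known to build up from the start of a gene towards its end. Solute carriers are encoded by housekeeping genes as well as by tightly controlled ones: the mitochondrial ADP/ATP carriers are needed by nearly every cell, whereas the amino acid exchanger Slc7a5 and the lactate carrier Slc16a1 respond to growth signals and nutrient supply. In melanoma, amino acid and lactate carriers are well known for supplying growing cells and clearing the products of glycolysis.

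The start sites of the solute carrier genes had GC-rich upstream sequence. Promoters were available for 33 of the 43 genes in the RefSeq table (GRCm38.p6), against 2504 of all 3117 listed genes. In the 250 bases before the start, read on both strands, the GC box GGGCGG occurred in 28 of 33 solute carrier promoters (84.8%) and in 63.9% of all promoters. The CCAAT box (CCAAT) occurred in 10 (30.3%), against 39.3% of all promoters. The cyclic AMP response element TGACGTCA was found in 1 (3.03%), against 4.87%, and the TATA box TATAAA in 0, against 5.35%. Median GC content was 64.8% in solute carrier promoters and 60.8% in all promoters. A match is a stretch of letters and not a measured binding site. Candidates for display were the genes with the lowest and highest start changes among those with a promoter, and the ADP/ATP carriers Slc25a4 and Slc25a5. The windows of 3 genes are shown, since those of the other candidates overlapped an annotated exon. Slc16a1 had a lower start ratio in Carm1 KO cells, Slc9a5 a higher one, and that of Slc25a5 stayed within 1.5-fold, as described below. Each line gives the 100 bases before the RefSeq start on the plus strand of GRCm38.p6, 5′ to 3′, with the GC box in capitals (CCGCCC is the GC box read from the other strand). They lie at chr3:104638564-104638663 for Slc16a1, chr8:105348158-105348257 for Slc9a5 and chrX:36795497-36795596 for Slc25a5. The RefSeq start of Slc9a5 lies 585 bases before the start annotated by GENCODE.
Slc16a1: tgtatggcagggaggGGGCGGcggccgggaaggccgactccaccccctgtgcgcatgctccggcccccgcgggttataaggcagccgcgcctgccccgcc
Slc9a5: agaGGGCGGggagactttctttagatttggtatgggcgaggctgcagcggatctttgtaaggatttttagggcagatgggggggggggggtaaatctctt
Slc25a5: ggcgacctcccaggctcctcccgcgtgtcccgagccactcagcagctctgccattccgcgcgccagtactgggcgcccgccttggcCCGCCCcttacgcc

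At both ends most solute carrier genes had a higher Ser2P ratio in Carm1 KO than in control cells. At the TSS, 40 genes were above 0 in each condition and 37 in both. Genes that differed by at least 1.5-fold, or 0.58 on the log2 scale, are given as higher or lower in Carm1 KO cells. By that measure 23 of the 37 genes were higher, 4 were lower and 10 lay between, beside 71.2% higher and 5.6% lower among all 2859 genes compared. The 4 lower genes were Slc7a5, Slc16a1, Slc18a1 and Slc30a7. Without members of coarse value, as defined in the next paragraph, 16 of 21 were higher and 1, Slc7a5, was lower. No share over all genes was computed under that limit, so these 2 counts have no background. The median change of the solute carrier genes at the TSS was 0.85 on the log2 scale (1.80-fold), against 1.17 (2.25-fold) for all genes. At the TES all 43 genes could be compared, and 33 were higher, 1 was lower and 9 lay between, beside 66.7% higher and 7.13% lower among all 3016 genes. The median TES change was 0.97 (1.96-fold), against 0.85 (1.80-fold) for all genes. The share of solute carriers that was higher was thus 62.2% at the TSS and 76.7% at the TES. It lay near that of all genes at both ends, below it at the TSS and above it at the TES.

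The size of this majority varies with the scale chosen between the libraries, and which scale is right is unknown here. Every ratio of a solute carrier gene above 0 was a quotient of 2 whole numbers multiplied by a constant that was the same for all genes of a condition, and the same held for between 99.2% and 100% of all genes' ratios. As that constant the most frequent TES ratio was taken, 2.68 in Carm1 KO cells and 1.03 in control cells. These differ by a factor of 2.61, or 1.38 on the log2 scale. The choice assumes that the most frequent ratio has a quotient of 1 in both conditions, which was not tested. A whole-number multiple or fraction of it would also give quotients of whole numbers. The factor, the quotients and all values with the constants divided out therefore hold under that assumption. A TES ratio of 62/33 times the constant, as Slc39a6 had in both genotypes, was therefore listed as 5.04 in Carm1 KO and 1.93 in control cells. The whole numbers are not read counts, since any common multiple gives the same quotient. A value is called coarse where the smaller of its 2 whole numbers is under 3. That holds for the Carm1 KO start ratios of 3 of the 4 genes lower at the TSS, with quotients of 1/258 for Slc16a1, 1/16 for Slc18a1 and 1/136 for Slc30a7, and for neither ratio of Slc7a5 (5/164 in Carm1 KO and 3/23 in control cells). The part of the constants in the majority that was higher was not tested. The most frequent TSS ratio was 0.168 in Carm1 KO and 0.0857 in control cells. The constants, taken from the TES, are 16 and 12 times these. The same rule at the TSS would thus give a smaller factor between the genotypes. The TES constants were divided out at both ends. With the all-gene median subtracted, 11 of the 37 solute carrier genes were at least 1.5-fold higher and 14 lower at the TSS (28.6% and 28.8% of all genes), and 7 of 43 were higher and 6 lower at the TES (11.6% and 22%). With the constants divided out, 10 were higher and 17 lower at the TSS (22.3% and 36.2% of all genes), and 1 was higher and 16 lower at the TES (2.62% and 46.4%). The 1 that was higher at the TES was Slc16a6. Higher and lower below refer to the deposited scale, and class medians are given on all 3.

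**Figure D1:**
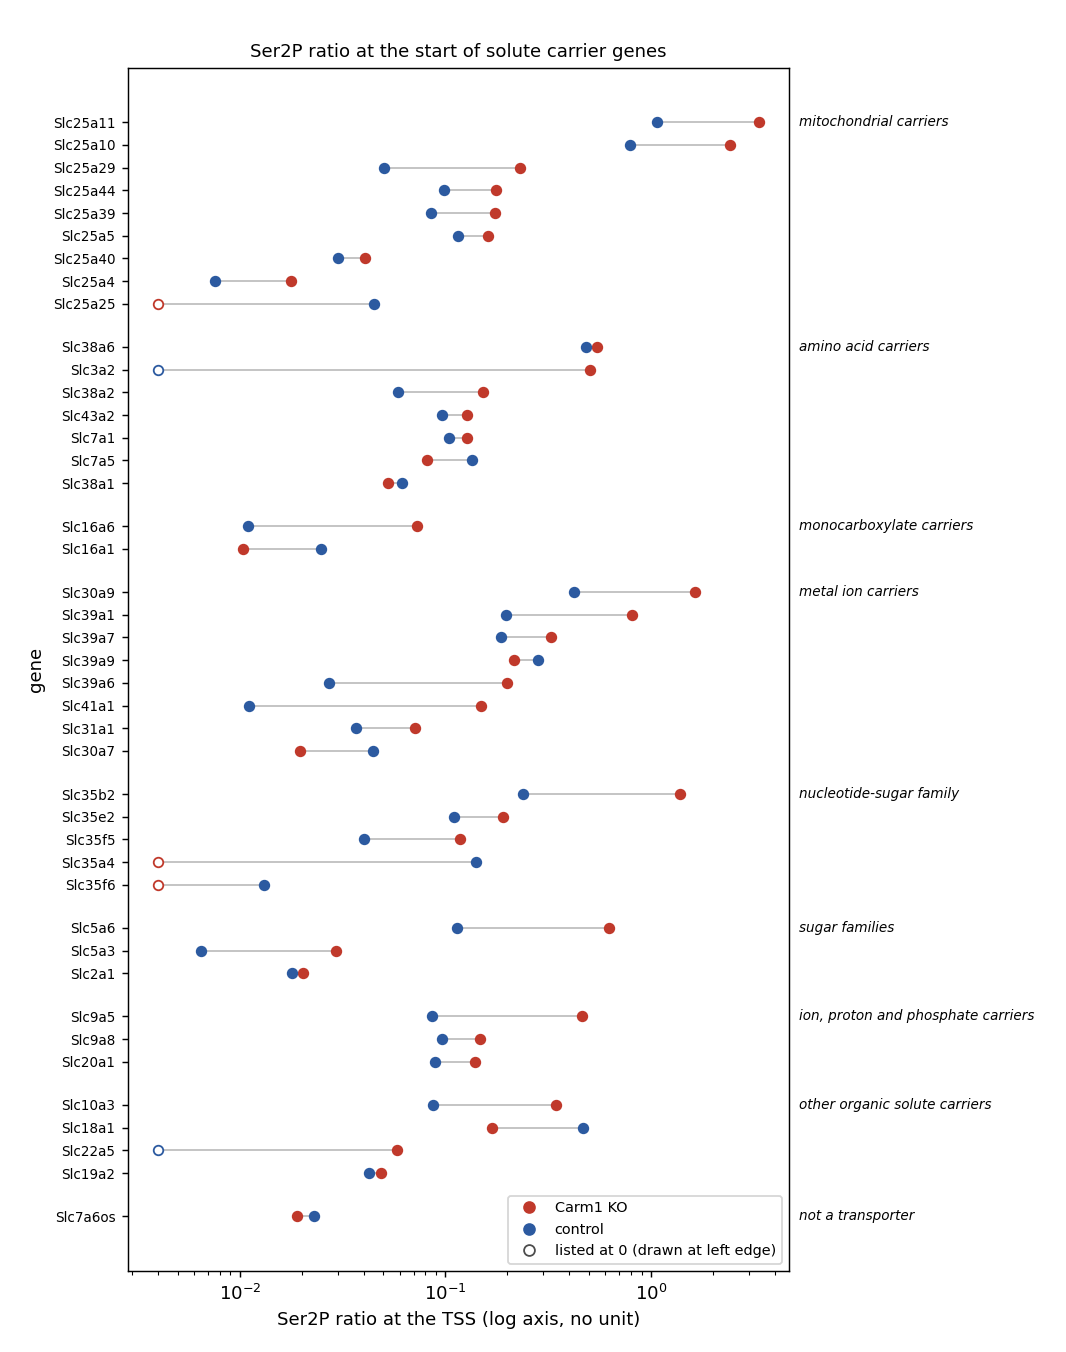
Ser2P ratio at the TSS (log axis, no unit) of 42 of the 43 solute carrier genes in Carm1 KO and control cells, 1 library each, grouped by class. The ratios of Carm1 KO cells reach 3.35 for Slc25a11, and the open circles at the left edge stand for genes listed at 0 in 1 condition.

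**Figure D2:**
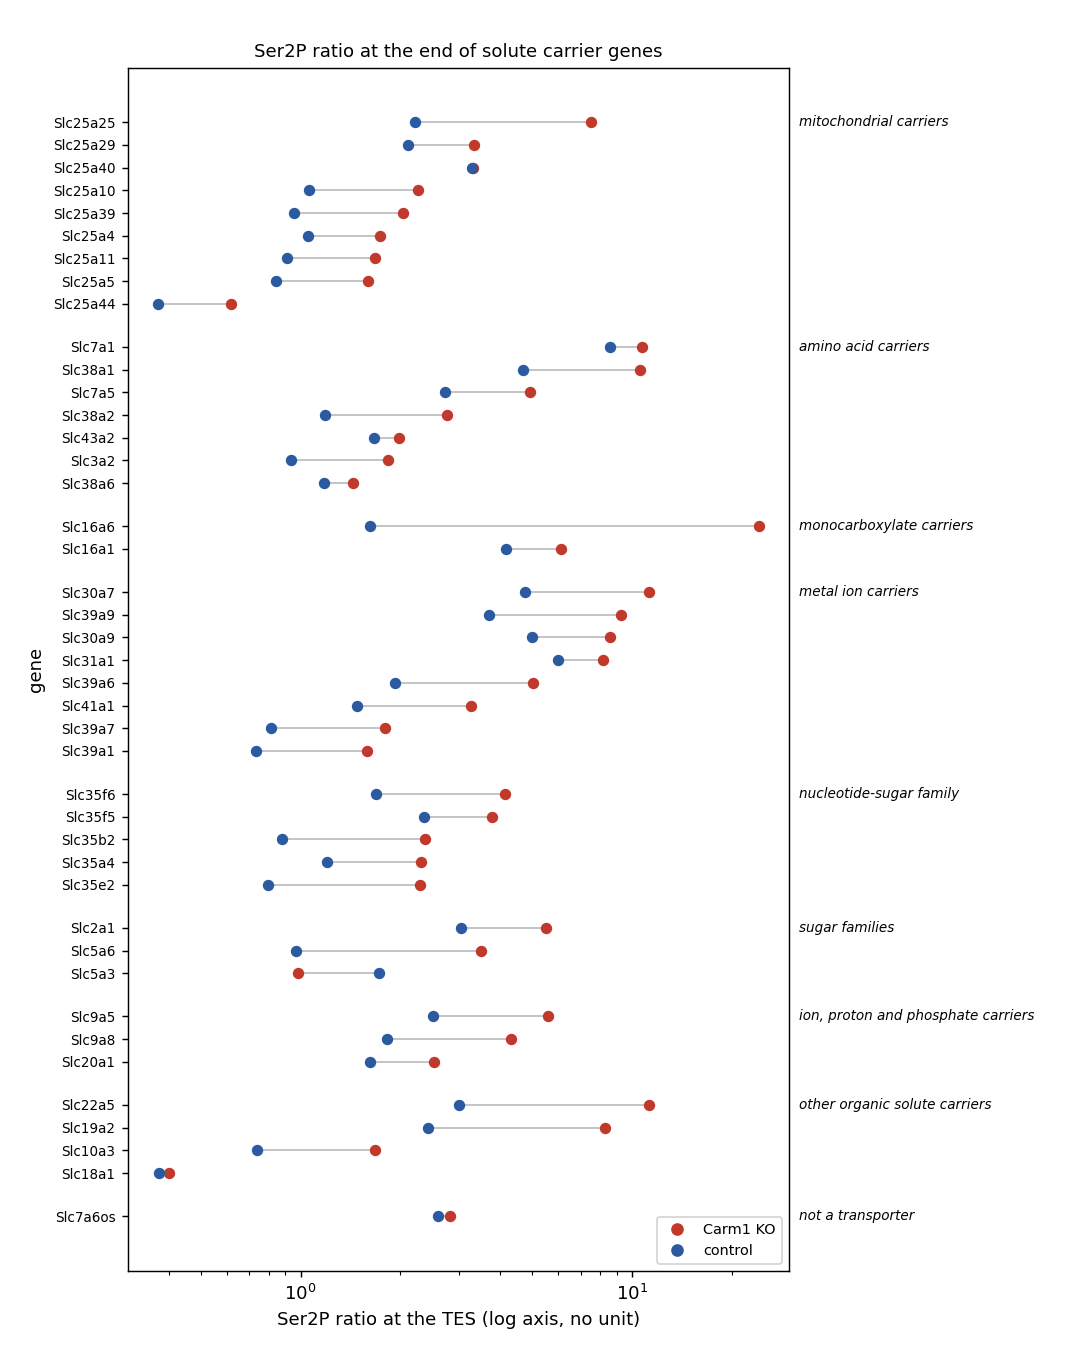
Ser2P ratio at the TES (log axis, no unit) of 42 of the 43 solute carrier genes in Carm1 KO and control cells, 1 library each, grouped by class. Slc16a6 stands out at 24.2 in Carm1 KO cells against 1.62 in control cells, and Slc5a3 is the only gene at least 1.5-fold lower in Carm1 KO cells on the deposited scale.

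The mitochondrial carriers bring metabolites, nucleotides and cofactors across the inner mitochondrial membrane. At the TSS 6 of 8 compared were higher in Carm1 KO cells and none was lower, and at the TES 8 of 9 were higher and none was lower. With the constants divided out, 1 was higher and 2 were lower at the TSS, and 0 were higher and 4 lower at the TES. Their median change was 1.13 at the TSS, which is -0.043 from the all-gene median and -0.26 after the constants were divided out, and 0.89 at the TES, which is 0.038 from the all-gene median and -0.50 after that division. Slc25a11, which exchanges oxoglutarate for malate, had the highest TSS ratio of the 43 genes in both genotypes, 3.35 in Carm1 KO cells against 1.07 in control cells. Slc25a10, the dicarboxylate carrier, followed at the TSS with 2.42 in Carm1 KO and 0.792 in control cells. Both had start ratios near or above their end ratios, for the TES ratio of Slc25a11 was 1.68 in Carm1 KO and 0.907 in control cells and that of Slc25a10 was 2.27 in Carm1 KO and 1.06 in control cells. Such an order is rare among listed genes: the TSS ratio exceeded the TES ratio for 2 of 37 solute carriers in Carm1 KO cells (Slc25a10 and Slc25a11), beside 6.16% of all genes, and for 2 in control cells (Slc25a11 and Slc18a1), beside 2.99%.

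The largest mitochondrial change at the TSS was that of Slc25a29, a carrier of basic amino acids, with 0.230 in Carm1 KO and 0.0502 in control cells, a change of 2.20 on the log2 scale (4.59-fold). The smallest were those of Slc25a40, with 0.0407 in Carm1 KO and 0.0299 in control cells (log2 0.44), and Slc25a5, with 0.162 in Carm1 KO and 0.115 in control cells (log2 0.49). Slc25a40 and Slc25a39 are paralogues that take glutathione into mitochondria, and they differed at the TES as well. For Slc25a40 the TES ratio was 3.31 in Carm1 KO and 3.28 in control cells (log2 0.012), nearly equal between genotypes. Slc25a39 had 2.04 in Carm1 KO and 0.952 in control cells at the TES, a 2.14-fold difference, and 0.174 in Carm1 KO and 0.0850 in control cells at the TSS (log2 1.03). Slc25a40 is 31948 bp long and Slc25a39 4962 bp.

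The ADP/ATP carriers Slc25a4 and Slc25a5 exchange matrix ATP for cytosolic ADP. The gene Slc25a4, the form known from heart and muscle, had the lowest mitochondrial start ratios above 0, 0.0177 in Carm1 KO cells against 0.00760 in control cells, and TES ratios of 1.73 in Carm1 KO and 1.05 in control cells. At the TES of Slc25a5, the form of dividing cells, the ratio was 1.60 in Carm1 KO and 0.844 in control cells. The 2 genes thus had similar end ratios, while their start ratios lay far apart in both genotypes. The Carm1 KO start ratio of Slc25a4 was coarse, however, 1/152 of the constant, and that of control cells was 5/676. Slc25a44, a carrier of branched-chain amino acids, had the lowest TES ratios of the class, 0.615 in Carm1 KO cells against 0.371 in control cells. Slc25a25, a calcium-regulated carrier of ATP-magnesium and phosphate, was listed at 0 at the TSS in Carm1 KO cells and at 0.0452 in control cells. Its TES ratio was 7.52 in Carm1 KO and 2.22 in control cells, the largest TES change of the class at 1.76 on the log2 scale (3.39-fold).

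Amino acid carriers had a smaller median start change than mitochondrial and metal ion carriers, the only other classes with more than 3 compared genes. The carriers of other organic solutes, with 3 compared genes, had a lower median still, 0.20. At the TSS 1 of 6 was higher in Carm1 KO cells and 1 was lower, and at the TES 4 of 7 were higher and none was lower. After division by the constants, 0 were higher and 5 lower at the TSS, and 0 were higher and 3 lower at the TES. The class median was 0.23 at the TSS, which is -0.94 from the all-gene median and -1.15 after the constants were divided out. Of the 6, 5 lay at least 1.5-fold below the all-gene median at the TSS. At the TES the median was 0.85, which is 0.0012 from the all-gene median and -0.53 after that division. Slc7a5, the large neutral amino acid exchanger that takes in leucine, was lower at the TSS, 0.0818 in Carm1 KO cells against 0.134 in control cells (log2 -0.71). Its TES ratio was higher, 4.93 in Carm1 KO cells against 2.73 in control cells (log2 0.85). Its partner chain Slc3a2, which brings the exchanger to the cell surface, was listed at 0.503 in Carm1 KO cells and at 0 in control cells at the TSS, and at the TES it had 1.84 in Carm1 KO and 0.938 in control cells (log2 0.97).

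The sodium-coupled carriers of glutamine and other neutral amino acids differed among themselves. Slc38a2, which is known to be induced by amino acid shortage, had 0.152 in Carm1 KO and 0.0585 in control cells at the TSS, the only amino acid carrier gene at least 1.5-fold higher there (log2 1.38). With the constants divided out that change was -0.0036. Its paralogue Slc38a1 lies near it on chromosome 15, and its start ratio was 0.0526 in Carm1 KO and 0.0618 in control cells (log2 -0.23). At the TES both were higher, Slc38a1 at 10.6 in Carm1 KO and 4.68 in control cells and Slc38a2 at 2.77 in Carm1 KO and 1.18 in control cells. Slc38a6, a further member, had the highest start ratios of the class, 0.547 in Carm1 KO cells against 0.484 in control cells, and low end ratios, 1.44 in Carm1 KO cells against 1.18 in control cells, with changes of 0.18 and 0.29. The arginine and lysine carrier Slc7a1 had some of the highest end ratios of all solute carriers, 10.7 in Carm1 KO cells against 8.57 in control cells, with changes of 0.29 at the TSS and 0.32 at the TES. Slc43a2, a carrier of large neutral amino acids, had 1.98 in Carm1 KO and 1.67 in control cells at the TES (log2 0.24) and a TSS change of 0.42. Slc7a6os, which encodes no transporter and shares its start region with the arginine methyltransferase gene Prmt7, changed by -0.28 at the TSS and 0.12 at the TES.

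The monocarboxylate carriers were 2 genes with unlike values. Slc16a1, the proton-coupled carrier of lactate and pyruvate, was lower at the TSS, 0.0104 in Carm1 KO cells against 0.0249 in control cells (log2 -1.26). The TES ratio of Slc16a1 was 6.12 in Carm1 KO and 4.17 in control cells (log2 0.55), just inside 1.5-fold. Slc16a6, known from zebrafish as an exporter of ketone bodies from hepatocytes, was higher at both ends. Its TSS ratio was 0.0726 in Carm1 KO and 0.0109 in control cells (log2 2.73, 6.63-fold). Those start ratios are coarse, 1/37 and 1/94 of the constants of Carm1 KO and control cells, and the change was 1.98 with a pseudocount of 0.01. At its TES the ratio was 24.2 in Carm1 KO and 1.62 in control cells, a change of 3.90 (14.95-fold), which placed it at percentile 99.8 of all genes compared there. The Carm1 KO value at that TES was 9 times the constant and is thus among the coarsest of the family. Slc16a6 starts next to Arsg on the opposite strand and the annotated genes overlap. Arsg had a TSS ratio of 0.503 in Carm1 KO and 0.122 in control cells (log2 2.04). With 2 genes the class median, 0.74 at the TSS and 2.23 at the TES, describes only the midpoint between them.

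Metal ion carriers held the widest range of start changes, between -1.17 and 3.75 on the log2 scale, and a narrow range at the end, between 0.45 and 1.38. At the TSS 6 of 8 were higher in Carm1 KO cells and 1 was lower, and at the TES 7 of 8 were higher and none was lower. Once the constants were divided out, 3 were higher and 2 lower at the TSS, and 0 were higher and 2 lower at the TES. The median was 1.46 at the TSS, which is 0.29 from the all-gene median and 0.072 after the constants were divided out, and 1.14 at the TES, which is 0.29 from the all-gene median and -0.24 after that division. Slc41a1, a magnesium carrier, had the largest start change of all solute carriers, with 0.149 in Carm1 KO and 0.0111 in control cells (13.5-fold). Those ratios are 1/18 and 1/93 of the constants of Carm1 KO and control cells and are among the coarsest of the family. With a pseudocount of 0.01 that start change was 2.92 on the log2 scale, against 3.75 without. At the TES Slc41a1 had 3.28 in Carm1 KO and 1.48 in control cells (log2 1.15).

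The zinc importers of family SLC39 all had higher end ratios on the deposited scale, with no change above the ratio of the constants. Slc39a6, a plasma membrane importer, had 0.200 in Carm1 KO and 0.0272 in control cells at the TSS (7.34-fold), and its TES change equalled the ratio of the constants. Its divergent neighbour Elp2 had a TSS ratio of 0.336 in Carm1 KO and 0.0697 in control cells (log2 2.27). Slc39a1, which also imports zinc at the plasma membrane, had 0.805 in Carm1 KO and 0.197 in control cells at the TSS (log2 2.03) and 1.59 in Carm1 KO and 0.734 in control cells at the TES (log2 1.11). Slc39a7, which releases zinc from the endoplasmic reticulum, had changes of 0.81 at the TSS and 1.14 at the TES. Slc39a9 was the family member without a higher start, 0.215 in Carm1 KO cells against 0.283 in control cells (log2 -0.39), and its end ratio was 9.25 in Carm1 KO and 3.70 in control cells (log2 1.32).

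Family SLC30 carries zinc out of the cytosol or between compartments, and the 2 listed genes were opposite at the start. Slc30a7, which fills the Golgi, was lower at the TSS, 0.0197 in Carm1 KO cells against 0.0444 in control cells (log2 -1.17). Slc30a9, a mitochondrial zinc carrier, was higher, 1.63 in Carm1 KO cells against 0.421 in control cells (log2 1.96). At the TES both were higher: Slc30a7 had 11.3 in Carm1 KO and 4.76 in control cells (log2 1.24), and Slc30a9 had 8.57 in Carm1 KO and 5.01 in control cells (log2 0.77). Extl2, which shares the start region of Slc30a7, was listed at 0 in Carm1 KO and at 0.0179 in control cells at the TSS. The copper importer Slc31a1 had 0.0710 in Carm1 KO and 0.0366 in control cells at the TSS (log2 0.96) and 8.17 in Carm1 KO and 5.98 in control cells at the TES, the smallest end change of the class.

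Members of family SLC35 sit mostly in the Golgi and endoplasmic reticulum, where the known ones supply nucleotide sugars and related donors for glycosylation and sulfation. All 3 with a TSS fold and all 5 at the TES were higher in Carm1 KO cells on the deposited scale, whereas with the constants divided out 1 was higher and 1 lower at the TSS, and 0 were higher and 1 lower at the TES. Medians were 1.55 at the TSS, which is 0.39 from the all-gene median and 0.17 after the constants were divided out, and 1.30 at the TES, which is 0.45 from it and -0.088 after that division. Slc35b2, which carries the sulfate donor PAPS into the Golgi, had 1.39 in Carm1 KO and 0.238 in control cells at the TSS (log2 2.54) and 2.38 in Carm1 KO and 0.879 in control cells at the TES (log2 1.44). The annotated end of Nfkbie lies within 1 kb of its start, and the part of that neighbour in the start ratio was not tested. Slc35f5 had 0.118 in Carm1 KO and 0.0403 in control cells at the TSS (log2 1.55) and 3.78 in Carm1 KO and 2.36 in control cells at the TES (log2 0.68). For Slc35e2 the start ratio was 0.190 in Carm1 KO and 0.110 in control cells (log2 0.80) and the end ratio 2.29 in Carm1 KO and 0.798 in control cells (log2 1.52).

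Both of the other SLC35 genes were listed at 0 at the TSS in Carm1 KO cells. Slc35a4 was listed at 0.140 there in control cells and had 2.30 in Carm1 KO and 1.20 in control cells at the TES. Slc35f6 was listed at 0.0131 at the TSS in control cells and had 4.14 in Carm1 KO and 1.69 in control cells at the TES. Together with Slc25a25 these were the 3 solute carriers at 0 in Carm1 KO cells only, and 3 were at 0 in control cells only, Slc3a2 and Slc22a5 among them. For the 6 no start fold was computed.

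The sugar families gave 3 genes, of which 2 were higher and 1 lower at the TSS, and 0 higher and 1 lower at the TES, after division by the constants. Slc2a1, the main glucose importer of many tumour cells, had low start ratios of 0.0203 in Carm1 KO and 0.0180 in control cells (log2 0.17) and end ratios of 5.49 in Carm1 KO and 3.05 in control cells (log2 0.85). Slc5a6, which takes in biotin and pantothenate, was higher at both ends, with 0.628 in Carm1 KO and 0.114 in control cells at the TSS (log2 2.46) and 3.50 in Carm1 KO and 0.966 in control cells at the TES (log2 1.86). Slc5a3, the sodium-coupled myo-inositol carrier that responds to osmotic stress, went opposite ways at its ends. Its TSS ratio was 0.0294 in Carm1 KO and 0.00651 in control cells (log2 2.18), and its TES ratio was 0.981 in Carm1 KO and 1.72 in control cells (log2 -0.81). Slc5a3 overlaps Mrps6 in the annotation on the same chromosome stretch, and how the authors divided signal between overlapping genes is not given in the sources used here. The class median was 2.18 at the TSS, which is 1.01 from the all-gene median and 0.79 after the constants were divided out, and 0.85 at the TES, which is -0.0014 from the all-gene median and -0.54 after that division.

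The ion, proton and phosphate carriers were all higher at the start where a fold could be had (3 of 3), and 3 of 4 were higher at the end. After that division 1 was higher and 2 were lower at the TSS, and 0 were higher and 2 lower at the TES. The medians were 0.64 at the TSS, which is -0.52 from the all-gene median and -0.74 after the constants were divided out, and 0.90 at the TES, which is 0.047 from it and -0.49 after that division. Slc9a5, a sodium-proton exchanger whose promoter window is printed above, had 0.463 in Carm1 KO and 0.0861 in control cells at the TSS (5.38-fold) and 5.60 in Carm1 KO and 2.52 in control cells at the TES (log2 1.15). Slc9a8, an exchanger of the Golgi, had changes of 0.61 and 1.24, and the phosphate importer Slc20a1 had 0.64 at the TSS and 0.64 at the TES.

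Of the carriers of other organic solutes, 1 of 3 was higher and 1 lower at the TSS, and 3 of 4 were higher at the TES. With the constants divided out, 1 was higher and 2 were lower at the TSS, and 0 were higher and 1 lower at the TES. The medians were 0.20 at the TSS, which is -0.96 from the all-gene median and -1.18 after the constants were divided out, and 1.47 at the TES, which is 0.62 from it and 0.088 after that division. Slc18a1, the vesicular monoamine transporter of endocrine cells, had the most negative start change of all solute carriers, with 0.168 in Carm1 KO and 0.467 in control cells (log2 -1.48), and the lowest Carm1 KO end ratio, 0.401 in Carm1 KO cells against 0.374 in control cells. The thiamine carrier Slc19a2 had a start change of 0.20 and end ratios of 8.28 in Carm1 KO and 2.43 in control cells (3.41-fold). Slc22a5, which takes in carnitine, had 0.0584 in Carm1 KO and 0 in control cells at the TSS and 11.2 in Carm1 KO and 2.999 in control cells at the TES (3.75-fold). Slc10a3, an orphan member of the bile acid carrier family, was higher at both ends, with changes of 1.99 and 1.18.

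**Figure D3:**
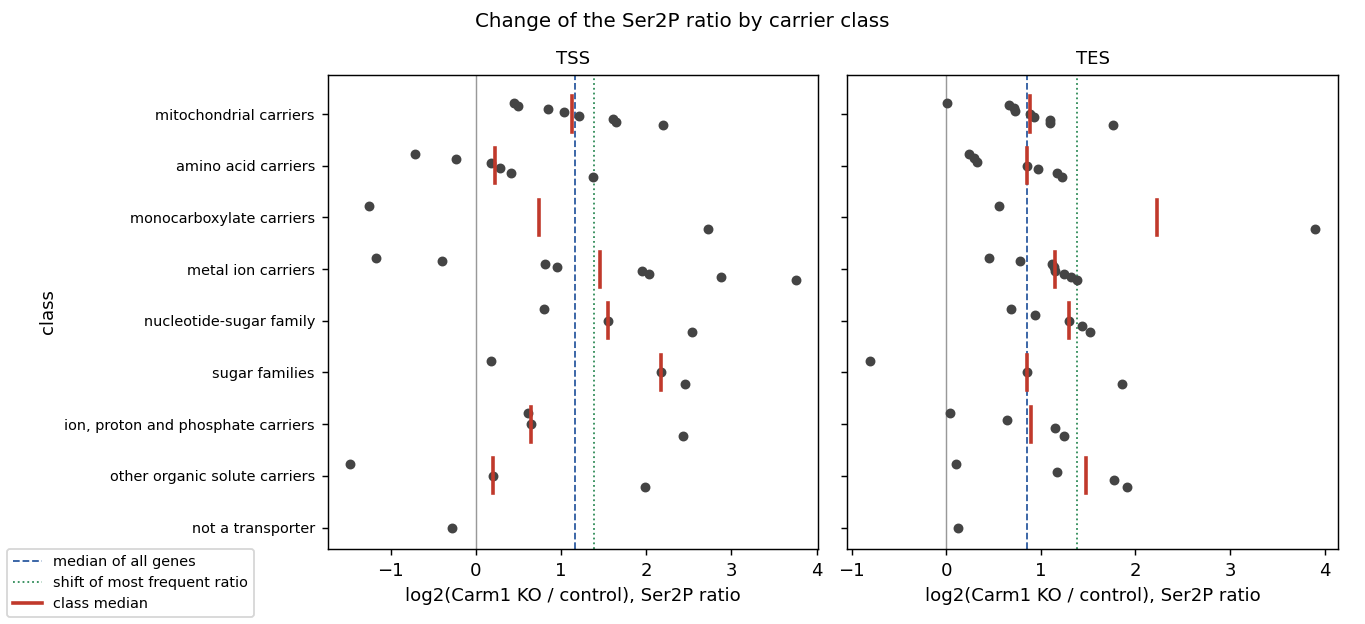
Change of the Ser2P ratio, log2(Carm1 KO / control), at the TSS and the TES for each solute carrier gene by class, with the class median, the median of all genes (1.17 at the TSS, 0.85 at the TES) and the ratio of the constants (1.38). Each point is 1 gene from 1 library per genotype; the amino acid median at the TSS is 0.23 and lies left of both lines, the metal ion median of 1.46 lies right of both, and most TES points lie left of the ratio of the constants.

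The ends of the same gene can be set against each other. Of the 37 solute carriers above 0 throughout, 21 were at least 1.5-fold higher at both ends in Carm1 KO cells (49.2% of all 2775 such genes). That count varies with the scale. With the all-gene median of each table subtracted, 3 were higher at both ends (3.24% of all genes). With the constants divided out, 1 was higher at both ends, Slc16a6 (0.396%). Another 5 were higher at the TES alone, beside 403 of all 2775 genes. Higher at the TSS alone was 1, beside 489 of all genes, and 5 passed at neither end, beside 181. Slc16a1 and Slc18a1 were lower at the TSS and within 1.5-fold at the TES. Slc7a5 and Slc30a7 were lower at the TSS and higher at the TES (2 of 37, beside 3.42% of all genes), and Slc5a3 was the reverse (1 of 37, beside 4.58%). The pattern of Slc7a5 and Slc30a7 depends on the scale, since their TES changes lay within 1.5-fold once the all-gene medians were subtracted. Slc5a3 then still changed by 1.01 at the TSS and -1.66 at the TES. Its control start ratio was coarse, however, 1/158 of the constant. On the deposited scale its start change was 1.25 with a pseudocount of 0.01, against 2.18 without.

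**Figure D4:**
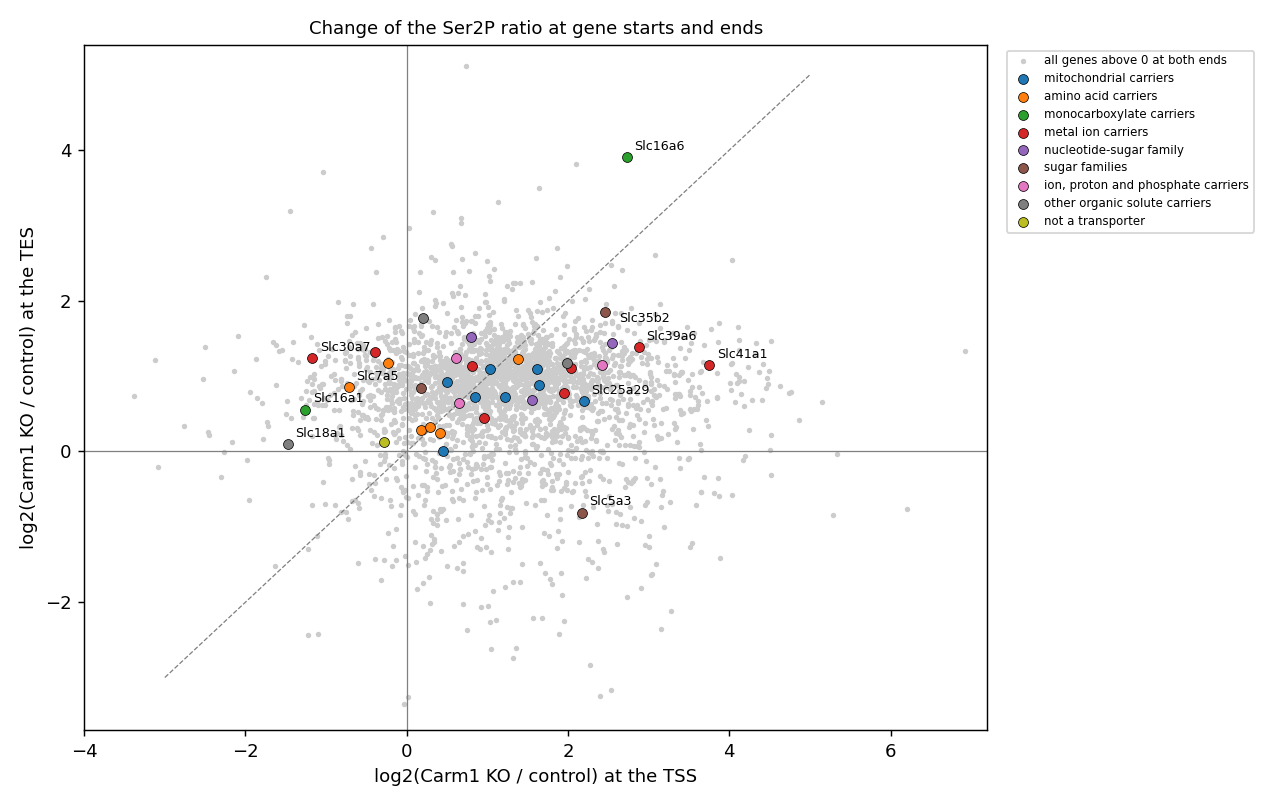
Change of the Ser2P ratio at the TES against that at the TSS, both as log2(Carm1 KO / control), for solute carriers coloured by class and for all 2775 genes above 0 at both ends (grey); the dashed line marks equal change. Slc16a6 lies at 2.73 and 3.90, Slc5a3 at 2.18 and -0.81, and Slc41a1 at 3.75 and 1.15, with 1 library per genotype.

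In the end-to-start gradient, the TES ratio divided by the TSS ratio, a factor that multiplies a whole library at both ends cancels. It had a median of 18.2 in Carm1 KO and 20.2 in control cells over the 37 genes, and of 15.7 in Carm1 KO and 19.5 in control cells over all 2775. It was at least 1.5-fold lower in Carm1 KO cells for 12 solute carriers (44.2% of all genes) and at least 1.5-fold higher for 11 (19.8% of all genes), with 14 between. Among the 10 genes whose ratios no other gene shared, 3 were lower and 2 higher. With members of coarse value left out, 7 of 21 were lower and 4 higher. With members of low ratio left out, 8 of 16 were lower and 3 higher. The limit for a low ratio is on the mean of both genotypes, so the values compared shape that count. No share over all genes was computed for these subsets. The median change of the gradient was -0.12 on the log2 scale for the solute carriers and -0.40 for all genes. The sign of that median depends on the scale of the 2 tables: with the all-gene median of each table subtracted it was 0.20 for the solute carriers and -0.083 for all genes, with 8 solute carriers lower and 14 higher (34.5% and 28% of all genes). The gradient of Slc30a7 was 571 in Carm1 KO and 107 in control cells, a change of 2.41. Steeper in Carm1 KO cells were also Slc16a1, with 588 in Carm1 KO and 168 in control cells (log2 1.81), and Slc39a9, with 43.02 in Carm1 KO and 13.1 in control cells (log2 1.72). For Slc7a5 it was 60.2 in Carm1 KO and 20.4 in control cells (log2 1.56), and for the thiamine carrier Slc19a2 it was 169.6 in Carm1 KO and 57.3 in control cells (log2 1.57). At the other extreme, Slc5a3 had 33.4 in Carm1 KO and 264 in control cells (log2 -2.99) and Slc41a1 had 21.99 in Carm1 KO and 134 in control cells (log2 -2.61). Most of these extremes rest on a start ratio whose upper whole number was 1: in Carm1 KO cells for Slc16a1, Slc19a2 and Slc30a7, in control cells for Slc5a3, and in both for Slc41a1. Slc39a9 and Slc7a5 had no such start ratio. By class the median change was -0.47 for mitochondrial, -0.71 for metal ion, -0.88 for SLC35 carriers, -0.60 for the sugar families and -0.0044 for ion, proton and phosphate carriers, against 0.075 for amino acid carriers, 1.57 for carriers of other organic solutes and 1.49 for the 2 monocarboxylate carriers. Both monocarboxylate carriers, 2 of 3 carriers of other organic solutes, 2 of 6 amino acid carriers and none of 8 mitochondrial carriers were at least 1.5-fold steeper in Carm1 KO cells.

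**Figure D5:**
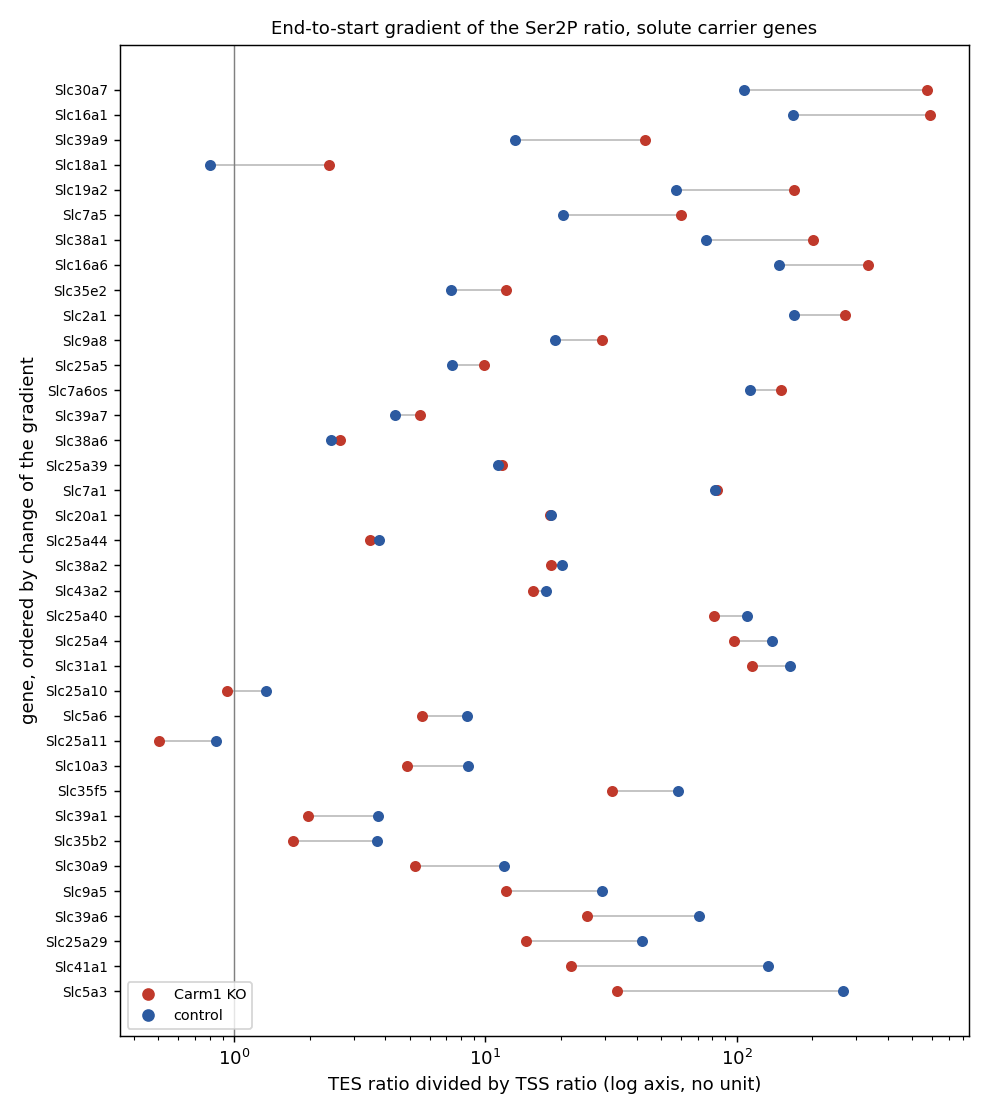
End-to-start gradient (TES ratio divided by TSS ratio, log axis, no unit) of the 37 solute carriers above 0 at both ends, in Carm1 KO and control cells, 1 library each, ordered by its change. Slc30a7 at the top has 571 in Carm1 KO and 107 in control cells, Slc5a3 at the bottom has 33.4 in Carm1 KO and 264 in control cells, and Slc25a11 lies below 1 in both.

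Gene length and neighbours varied with class. The solute carrier genes had a median length of 21373 bp, with a range of 3157 to 72495 bp, against 18086 bp for all listed genes. Mitochondrial carriers were short, with a median of 7348 bp and none over 50 kb, and amino acid carriers were long, with a median of 45882 bp and 3 of 7 over 50 kb. Among solute carriers of up to 10 kb the median start change was 1.61 (9 genes), against 1.11 in all genes of that length. In those over 10 and up to 30 kb it was 1.11 (16 genes), against 1.22. For those over 30 kb it was 0.35 (12 genes), against 1.22 in all genes of that length, so the solute carriers' decline of the start change with length was not seen over all genes. At the TES the medians were 1.09, 1.15 and 0.56 in the 3 length groups, against 0.93, 0.99 and 0.30 in all genes. The part of length in the low start changes of the amino acid carriers was not tested.

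A divergent gene started within 1 kb of 19 of the 43 solute carrier starts (44.2%), against 36.5% of all listed genes. Solute carriers with such a partner had a median start change of 0.88 (16 genes), and those without had 0.85 (21 genes). Whether reads were counted by strand is unknown here. The partner sometimes moved like the carrier and sometimes did not. Trmt5, beside Slc38a6, changed by 0.17 at the TSS and 0.19 at the TES, near the 0.18 and 0.29 of Slc38a6. Rnf167, beside Slc25a11, changed by 0.23 at the TSS against 1.64 in Slc25a11, and Prmt7, beside Slc7a6os, by 2.59 against -0.28. Values shared with other genes occurred here too: at the TSS 20 of the 40 above 0 in Carm1 KO cells and 16 of the 40 in control cells had exactly the ratio of another gene, against 55.2% of all genes in Carm1 KO and 39.6% in control cells.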

How the data were processed

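mNET-seq libraries of Carm1 KO and control B16F10 cells were processed by the authors into 2 tables, 1 per gene end. The deposited values are a ratio, called a Ser2 fraction per the file headers but reaching above 1, for which the sources used here give neither divisor nor windows nor the scaling between libraries. A further deposited column, the authors' difference between both ratios, equalled Carm1 KO minus control within 1e-09 in all 3112 TSS and 3030 TES genes and was not used. The value columns were assigned to the genotypes by their names. Per the submitters' processing notes, cutadapt 1.18, TopHat2 2.1.1 and the mouse build GRCm38 (mm10) were used, with no settings given. The tables hold no read counts, so depth is unknown and no interval was computed.

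The change was log2(Carm1 KO / control) over all genes, with no pseudocount and no fold for a gene at 0, and 1.5-fold was the limit for a call. With 1 library per group no test was run. A value counted as a quotient of whole numbers times the constant when a denominator of up to 3000 matched it within a relative tolerance of 1e-12. Gene positions, lengths and neighbours within 1 kb came from GENCODE M21 on GRCm38 (43 of 43 solute carriers and 3077 of 3117 listed genes matched, without regard to case), and promoters from RefSeq on GRCm38.p6. The scripts were run in Python 3.11.15 with pandas 2.3.3, numpy 2.4.6 and matplotlib 3.10.9. Their calls were checked on simulated data with known 2-fold changes and no noise. That checks the code and not how reliable the calls are in these libraries.

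The members, the classes by SLC family number, the markers and the limits were chosen with earlier results of these data known. Slc7a6os was kept out of the classes because it encodes no transporter, but it stays in the counts and medians over all solute carrier genes. Without it the median change was 0.90 at the TSS (36 genes) and 1.03 at the TES (42 genes). A class holds every member of its families, whatever that member carries. The sugar families thus include Slc5a6 and Slc5a3, and the nucleotide-sugar family includes the PAPS carrier Slc35b2. The rule for named genes took all members of classes with up to 6 compared genes, the 3 largest and 3 smallest changes of larger classes, members at 0, members opposite at both ends, and the highest and lowest ratios. Values of 1 member are not reported here, though it stays in the counts and medians. Further genes, and the neighbours named, were picked as examples after their values were seen. Alternatives were the fold limit, the scaling, a pseudocount (0.01 at the TSS and 0.1 at the TES), and leaving out members of low, shared or coarse values (coarse where the smaller whole number of the quotient was under 3), of great length or with near neighbours.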

Additional observations from a re-analysis of the deposited data

How the results depend on the processing

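The scale between the libraries was the choice on which most values turned. With the all-gene median subtracted, 11 solute carriers were higher and 14 lower at the TSS, with a median change of -0.32, and 7 were higher and 6 lower at the TES, with a median of 0.12. The class medians at the TSS then were -0.043 for mitochondrial, -0.94 for amino acid, -0.43 for monocarboxylate, 0.29 for metal ion, 0.39 for nucleotide-sugar, 1.01 for sugar, -0.52 for ion and -0.96 for other organic solute carriers. Here and below, sugar names the families SLC2 and SLC5 and nucleotide-sugar the family SLC35, not the substrate of each member. At the TES they were 0.038 for mitochondrial, 0.0012 for amino acid, 1.38 for monocarboxylate, 0.29 for metal ion, 0.45 for nucleotide-sugar, -0.0014 for sugar, 0.047 for ion and 0.62 for other organic solute carriers. With each value divided by its condition's most frequent TES ratio, a choice made after seeing the data, 10 were higher and 17 lower at the TSS, with a median of -0.54, and 1 was higher and 16 lower at the TES, with a median of -0.42. Class medians at the TSS under that division were -0.26 for mitochondrial, -1.15 for amino acid, -0.65 for monocarboxylate, 0.072 for metal ion, 0.17 for nucleotide-sugar, 0.79 for sugar, -0.74 for ion and -1.18 for other organic solute carriers. Those at the TES were -0.50 for mitochondrial, -0.53 for amino acid, 0.84 for monocarboxylate, -0.24 for metal ion, -0.088 for nucleotide-sugar, -0.54 for sugar, -0.49 for ion and 0.088 for other organic solute carriers. These shifts follow from the construction of both alternatives, which subtract 1 number per table or per condition from every log2 change.

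Single genes whose change was past 1.5-fold on the deposited scale and took the other sign were these. With the all-gene median subtracted, the log2 change at the TSS was Slc20a1 -0.52, Slc25a39 -0.13, Slc25a44 -0.32, Slc31a1 -0.21, Slc35e2 -0.37, Slc39a7 -0.36 and Slc9a8 -0.56. At the TES it was Slc20a1 -0.21, Slc25a29 -0.18, Slc25a4 -0.13, Slc25a44 -0.12, Slc2a1 -0.0014, Slc30a9 -0.075 and Slc35f5 -0.17. With the most frequent ratio divided out, the log2 change at the TSS was Slc20a1 -0.74, Slc25a39 -0.35, Slc25a4 -0.17, Slc25a44 -0.54, Slc31a1 -0.43, Slc35e2 -0.59, Slc38a2 -0.0036, Slc39a7 -0.57 and Slc9a8 -0.77. At the TES it was Slc10a3 -0.21, Slc20a1 -0.75, Slc25a10 -0.29, Slc25a11 -0.50, Slc25a29 -0.72, Slc25a39 -0.29, Slc25a4 -0.67, Slc25a44 -0.66, Slc25a5 -0.46, Slc2a1 -0.54, Slc30a7 -0.14, Slc30a9 -0.61, Slc35a4 -0.45, Slc35f5 -0.71, Slc35f6 -0.088, Slc38a1 -0.21, Slc38a2 -0.16, Slc39a1 -0.27, Slc39a7 -0.24, Slc39a9 -0.063, Slc3a2 -0.42, Slc41a1 -0.24, Slc7a5 -0.53, Slc9a5 -0.23 and Slc9a8 -0.14.

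Subtracting the all-gene median of each table gave a median gradient change of 0.20, against -0.12 on the deposited scale, with 14 genes steeper and 8 flatter of 37. A pseudocount, with all 43 genes compared, gave 7 lower genes at the TSS, a median gradient change of 0.015 with 14 genes steeper and 15 flatter, and TSS class medians of 0.75 for nucleotide-sugar, 1.25 for sugar and 1.02 for other organic solute carriers. Leaving out members of low ratio gave 2 lower genes of 26 at the TSS, 0 of 30 at the TES and 3 of 16 with a steeper gradient in Carm1 KO cells, beside 8 with a flatter one. The values compared decide which members that limit leaves out, and Slc5a3, the only gene lower at the TES, was among them. Leaving out members that share a value with another gene gave 9 higher and 1 lower of 14 at the TSS. It gave TSS medians of -1.26 for monocarboxylate carriers and 0.17 for the sugar families, and a TES median of 0.55 for monocarboxylate carriers. Of 10 genes, 2 then had a steeper and 3 a flatter gradient. Without genes over 50 kb, 2 of 30 were lower at the TSS, 7 of 30 had a steeper and 11 a flatter gradient, and the TSS medians of ion and other organic solute carriers were 1.54 and 1.09. At 2-fold, 21 of 43 were higher and 0 lower at the TES. Without the members of coarse value, a choice also made after seeing the data, 16 of 21 were higher and 1 lower at the TSS, 4 of 21 had a steeper and 7 a flatter gradient, and the medians were 1.99 for other organic solute carriers at the TSS and 0.55 for monocarboxylate carriers at the TES. For the pseudocount, the 2-fold limit and the subsets no share over all genes was computed. The cause of these moves beyond the change of members was not tested. No count moved by over 1.5 times, and no median by over 0.58, when members with a near neighbour, or those at 0 at either end, were left out. Near neighbour here means a gene ending within 1 kb of the start or starting within 1 kb of the end. Members with a divergent start were therefore mostly kept, and 32 of 37 remained in the TSS counts. Of the 21 compared there without a divergent partner, 14 were higher and 1 lower, beside 9 and 3 of the 16 with one. Class medians and gradients were not computed for that split. No paired analysis was possible because each group had 1 library and no replicate number. No replicate could be left out for the same reason. Depth was unknown, so no counting interval could be given.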
